A study of Mus musculus with 18 samples.

Results

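The dynamin genes Dnm1, Dnm2 and Dnm3, together with Dnm3os, the long non-coding RNA transcribed from the opposite strand within Dnm3, were followed across an injury time course of mouse knee cartilage. Introns of the 3 dynamins hold, on the opposite strand, the genes of the microRNAs of the miR-199 family. The members were found by matching the transcript identifiers of the deposited tables, without their version numbers, to the mouse GENCODE annotation, which gave these 4 genes of 49184 in all, and all 49 of their annotated transcripts were present. Cartilage caps of the femoral condyle were taken from 12-week-old male wild-type C57Bl/6J mice. In the injured mice a single 12 N load had ruptured the anterior cruciate ligament (ACL) of the right knee, and the naïve mice were not loaded. No genetic change differed between groups. The study describes isoflurane and buprenorphine with the loading procedure and does not state separately whether the naïve mice received them. The 5 groups were naïve cartilage, labelled as day 7 (6 libraries), cartilage of the injured right knee at day 1 and at day 7 (3 libraries each), and cartilage of the contralateral left knee of injured mice at day 1 and at day 7 (3 libraries each). Each library was a pool of mice: the study's description of the pools gives 2 mice for each day 1 library and 4 for each day 7 library, with left and right knees pooled apart, and lists 6 mice for the 6 naïve libraries, every one of which pooled 2 knees, whereas the series text gives 4 mice for every sample and speaks of medial cartilage caps. The study explains its pools of 4 mice by cartilage that had been partly lost by day 7. The labels do not tie the left and right libraries of the same mice to each other, so that libraries were treated as independent throughout, and p-values measure the spread between pooled libraries. By that description left and right naïve libraries came from the same mice, so that the 6 naïve libraries are not 6 independent samples, and every SD and p-value that uses them may be too small. Libraries are named here by the last number in their labels, from 1 to 18. Total RNA depleted of ribosomal RNA was sequenced, and the estimated counts per library summed to between 16074762 and 41794005, with a median of 25465706.

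Dynamins are large GTPases that assemble as a collar around the neck of a budding vesicle and pinch it off, above all in clathrin-mediated endocytosis and at caveolae. Dnm2 is made in nearly every cell type, Dnm1 is best known from neurons, where it serves the recycling of synaptic vesicles, and Dnm3 is best known from brain and testis. Dnm3os is the precursor of miR-199a and miR-214 and is required for normal growth of the mouse skeleton, and Twist1, a transcription factor that binds E-boxes (CANNTG), is known to activate it.

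The sequences that make these genes a group are the microRNA hairpins on their opposite strands, and they are shown because each hairpin carries the same pair of seeds. Sequences are from RefSeq for GRCm38.p6, written 5′ to 3′. In the mature microRNAs the capitals mark the seed, bases 2 to 8. In the 3 hairpins the capitals mark the same letters wherever they were found, the seed of miR-199a-5p first and that of miR-199a-3p second. The mature miR-199a-3p and miR-199b-3p had the same sequence.
miR-199a-5p: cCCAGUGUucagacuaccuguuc
miR-199a-3p: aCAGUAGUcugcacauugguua
miR-214-5p: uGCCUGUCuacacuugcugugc
miR-214-3p: aCAGCAGGcacagacaggcagu
Mir199b, opposite strand of Dnm1: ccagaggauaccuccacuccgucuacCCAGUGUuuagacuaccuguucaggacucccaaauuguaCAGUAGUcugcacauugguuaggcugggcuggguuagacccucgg
Mir199a-1, opposite strand of Dnm2: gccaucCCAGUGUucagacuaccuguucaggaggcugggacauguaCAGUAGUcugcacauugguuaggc
Mir199a-2, within Dnm3os: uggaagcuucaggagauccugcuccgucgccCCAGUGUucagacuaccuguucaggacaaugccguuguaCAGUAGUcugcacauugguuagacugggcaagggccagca

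The 3 hairpins had the same place in their hosts. On GRCm38, Dnm1 (ENSMUSG00000026825.17) spans chr2:32308471-32353338 on the minus strand, and Mir199b lies at chr2:32318460-32318569 on the plus strand, in intron 14 of the transcript Dnm1-202. Dnm2 (ENSMUSG00000033335.17) spans chr9:21424908-21507759 on the plus strand, with Mir199a-1 at chr9:21496495-21496564 on the minus strand, in intron 14 of Dnm2-202. Dnm3 (ENSMUSG00000040265.16) spans chr1:161982453-162478034 on the minus strand, and its intron 14, of 97087 bases in Dnm3-201, holds the whole of Dnm3os (ENSMUSG00000078190.7, chr1:162217623-162225550, plus strand). Mir199a-2 begins 191 bases and Mir214 begins 5745 bases downstream of the Dnm3os start. In each of these transcripts, then, the microRNA gene stood in intron 14 and was read from the other strand. Other transcripts of Dnm1 and Dnm2 have 1 exon more before it, so that the same intron is number 15 in Dnm1-217 and Dnm2-211. A further microRNA gene, Gm23363, lies beside Mir199b in the same intron of Dnm1. These libraries were not made to measure microRNAs: Mir214 had 0 counts in all 18 libraries, Mir199a-2 and Gm23363 had at most 1, Mir199b at most 4 and Mir199a-1 at most 8, and nothing is said of mature microRNA levels here.

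The tissue was checked against marker lists before the comparisons. Chondrocyte markers were abundant in every library, their 15 genes summing to between 5051 and 15531 CPM (counts relative to the library total, itself scaled by the trimmed mean of M values, TMM). Markers of fibroblasts and perichondrium were higher still, since the list holds the collagen genes Col1a1 and Col3a1. Their 12 genes summed to 15520 ± 3369 CPM (SD) in naïve cartilage. There, erythroid markers summed to 32847 ± 3782 CPM, neutrophil markers to 9357 ± 1487 CPM and skeletal muscle markers to 9112 ± 3460 CPM. Each of these means was above that of the chondrocyte markers, 6762 ± 1428 CPM. In injured cartilage of day 7 they were 21494, 6687 and 5255 CPM, and the chondrocyte mean was 9936 CPM. The lists differ in their genes, so that these sums do not give shares of cells. One contralateral library of day 7, library 13, stood apart from all others: its 10 most abundant genes took 42.5% of its counts, against 16.6% to 29.8% in the other 17, and its fibroblast markers summed to 57137 CPM against 17753 and 24207 CPM in libraries 14 and 15. The main differences of the members that rest on it are therefore given with and without it.

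In uninjured cartilage Dnm2 was by far the most abundant dynamin. Levels of different genes were compared in TPM, a unit of abundance per transcript length and library, and within libraries. In naïve cartilage Dnm2 stood at 25.4 ± 4.01 TPM (SD, n = 6), Dnm1 at 3.72 ± 0.607, Dnm3 at 1.25 ± 0.104 and Dnm3os at 0.814 ± 0.202. The ranges of these 4 genes over the naïve libraries did not overlap, the closest neighbours being Dnm3 (1.14 to 1.41 TPM) and Dnm3os (0.455 to 1.02 TPM). The order of these 2 rests on 1 short transcript, Dnm3-208 (426 bases), which took 55.9 ± 7.97% of the Dnm3 TPM: without it, a sum added after the values were seen, Dnm3 stood at 0.554 ± 0.129 TPM (0.401 to 0.790) and overlapped Dnm3os. In injured cartilage at day 7 the order of Dnm3 and Dnm3os was not separated with all transcripts counted. Dnm3os stood at 1.91 ± 0.210 TPM (n = 3), within the range of 0.774 to 2.27 TPM for Dnm3. Without Dnm3-208 the order was separated, with Dnm3os (1.69 to 2.11 TPM) above Dnm3 (0.953 ± 0.462 TPM, 0.656 to 1.48). Dnm2, at 16.3 ± 2.95 TPM, stayed above Dnm1, at 9.02 ± 2.87 TPM.

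The members differed in read counts. Dnm2 had 1116 to 5379 counts per library, Dnm1 201 to 1829, Dnm3os 90 to 775 and Dnm3 only 23 to 145, so that counting error was largest for Dnm3, although its fitted standard errors (0.17 against naïve cartilage at day 7) were close to those of Dnm3os (0.18).

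**Figure D1:**
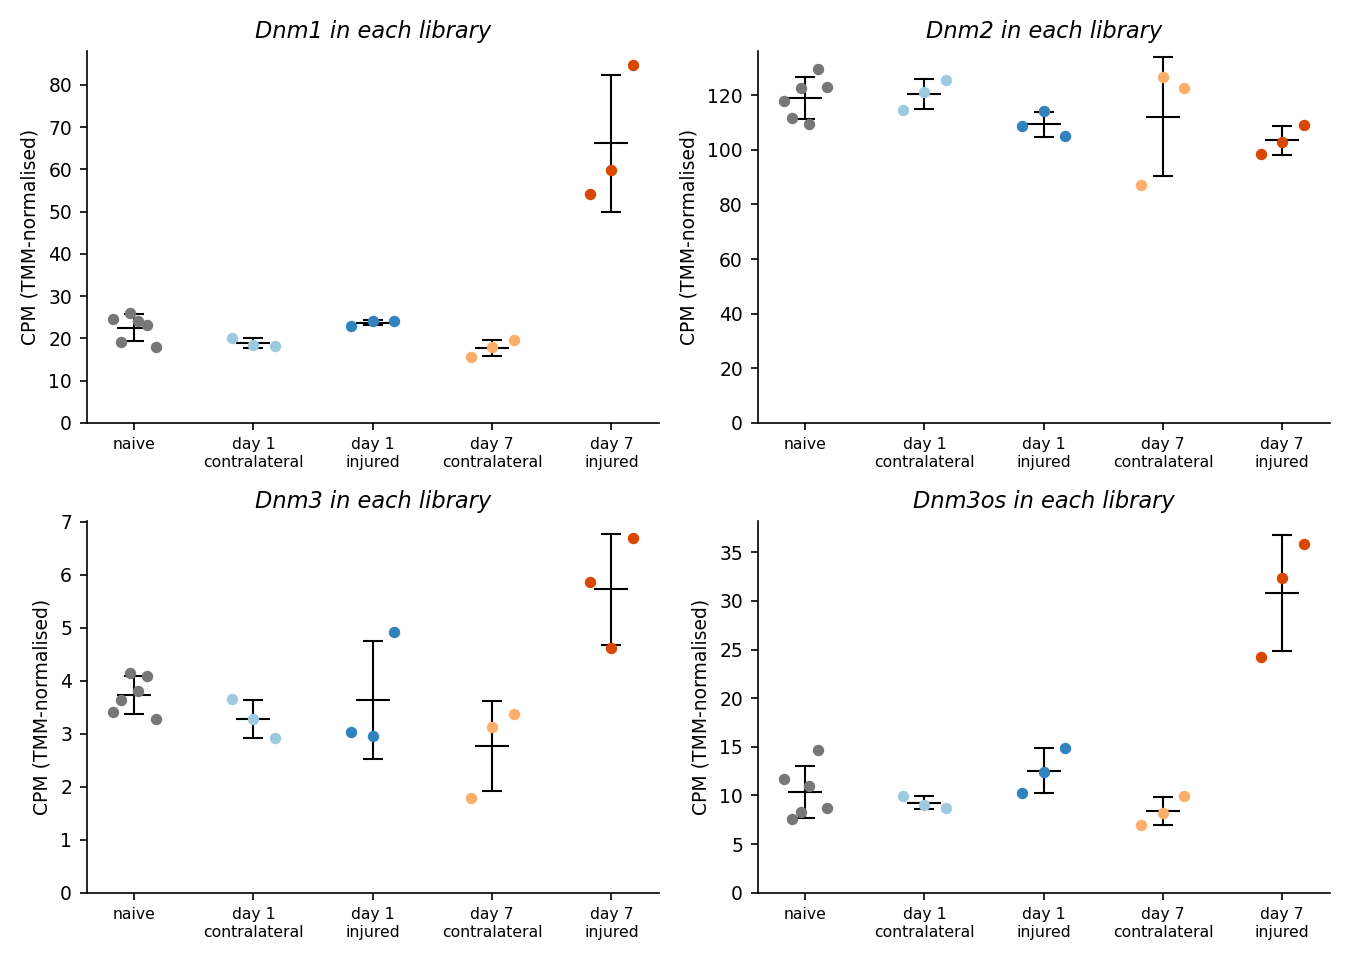
Level of each member in CPM (TMM-scaled, linear axis from 0) in every library of the 5 groups; points are libraries, horizontal marks are group means and bars are 1 SD. The 3 injured libraries of day 7 lie above all other libraries for Dnm1 and Dnm3os, while Dnm2 overlaps between injured and contralateral cartilage.

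Dnm1 was higher in injured cartilage at day 7 than in any other group. In naïve cartilage it ranged from 17.96 to 25.9 CPM, with a median of 23.7 (n = 6). At day 1 it stood at 23.0, 24.1 and 24.1 CPM in the injured libraries and at 20.2, 18.3 and 18.2 CPM in the contralateral ones, and the contralateral libraries of day 7 gave 15.7, 17.9 and 19.5 CPM. The injured libraries of day 7 (16, 17 and 18) gave 54.1, 59.7 and 84.6 CPM. All 3 lay above the highest of the other 15 libraries, with a clear gap, and library 18 was the highest; all other groups overlapped naïve cartilage. A gene was called changed at an adjusted p (false discovery rate, FDR, of edgeR's quasi-likelihood test over all genes) of at most 0.05 and a change of at least 1.5-fold. Against naïve cartilage, Dnm1 rose 2.97-fold (log2 fold change 1.57, SE 0.13, FDR 4.43e-07), and against the contralateral cartilage of day 7 the difference was 1.90 on the log2 scale (SE 0.16, FDR 4.55e-07), or 1.84 without library 13 (FDR 4.78e-06). Between injured cartilage of day 7 and of day 1 it was 1.497 (SE 0.16, FDR 1.28e-05).

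Dnm3os, the microRNA precursor, rose in the same comparisons. In naïve cartilage it ranged from 7.55 to 14.7 CPM, with a median of 9.84 (n = 6). The injured libraries of day 7 gave 24.2, 32.3 and 35.8 CPM, and the contralateral libraries of the same day 7.01, 8.20 and 9.94 CPM. At day 1 the injured libraries gave 10.3, 12.4 and 14.9 CPM and the contralateral ones 9.99, 9.01 and 8.71 CPM. Again the injured libraries of day 7 lay above all 15 others; those of day 1 lay above their contralateral libraries but inside the naïve range, apart from library 6, which was slightly above it. Against naïve cartilage the log2 fold change at day 7 was 1.59 (SE 0.18, FDR 1.11e-05), a 3.01-fold rise. It was 1.87 against the contralateral cartilage of day 7 (SE 0.23, FDR 1.69e-05; 1.78 without library 13, FDR 0.00014) and 1.32 against injured cartilage of day 1 (SE 0.22, FDR 0.000653; 0.86 with library totals, FDR 0.0119).

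Dnm3, the gene around Dnm3os, rose less, and its call was the least secure. Naïve libraries ranged from 3.28 to 4.15 CPM, with a median of 3.73 (n = 6). The injured libraries of day 7 gave 5.86, 4.63 and 6.71 CPM, above every naïve library, but library 17 lay below library 6 of the injured group of day 1, at 4.93 CPM. The contralateral libraries of day 7 gave 1.79, 3.12 and 3.38 CPM, library 13 being the lowest of all 18. The fitted change against naïve cartilage was 1.56-fold (log2 0.64, SE 0.17, FDR 0.0105), just past the 1.5-fold limit, and against contralateral cartilage of day 7 the log2 difference was 1.03 (SE 0.23, FDR 0.00467; 0.84 without library 13, FDR 0.0134). Without injured library 18 the call against naïve cartilage was lost (log2 0.51, FDR 0.0781), and it was lost as well when the fit took account of the average transcript length (log2 0.31, FDR 0.430) or used library totals in place of TMM (0.32, FDR 0.162). The call against contralateral cartilage was lost with the length offset (0.31, FDR 0.569) and with library totals (0.84, FDR 0.0612). Against injured cartilage of day 1 the difference was 0.68 (SE 0.20, FDR 0.0213), a call lost without library 2, 3, 16 or 18 (log2 0.54 to 0.67 in these 4 fits), with the length offset (0.26, FDR 0.591) and with library totals (0.23, FDR 0.381).

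Dnm2, the dynamin of nearly all cells, was not called in any comparison. Naïve libraries ranged from 109 to 130 CPM, with a median of 120.3 (n = 6), and the injured libraries of day 7 gave 98.4, 102.9 and 109 CPM. Each injured library of day 7 was below each naïve one, though the highest of the former and the lowest of the latter nearly met. The log2 difference was -0.18 (SE 0.07, FDR 0.0595). Contralateral libraries of day 7 gave 87.0, 127 and 123 CPM, and the injured libraries lay above library 13 and below libraries 14 and 15; the log2 difference was -0.12 (SE 0.12, FDR 0.537), or -0.25 without library 13 (FDR 0.0613).

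These calls stand against a broad change of the transcriptome. At day 7, 16.6% of the 21129 genes tested were called in injured against naïve cartilage, 10.4% higher and 6.11% lower, and 3 of the 4 members were among those higher. Against contralateral cartilage of day 7 the share called was 12.6% and 9.33% were higher, again with 3 of the 4 members, and against injured cartilage of day 1 it was 15.4% with 9.04% higher, with the same 3. Being above all naïve libraries in all 3 injured ones was itself frequent, at 17.4% of genes; 10.8% were below all of them, as Dnm2 was, and 12% were above all 15 other libraries, as Dnm1 and Dnm3os were. The 3 comparisons share the injured libraries of day 7 and are not independent of each other. The scaling also matters to all of these values: with library totals in place of TMM the median of all genes in injured against naïve cartilage of day 7 moved from -0.04 to -0.35 on the log2 scale, and beside that median Dnm1 stood at 1.26, Dnm3os at 1.26, Dnm3 at 0.32 and Dnm2 at -0.50. The split of the calls turned with it, from 2207 higher and 1291 lower to 1268 higher and 4556 lower; against contralateral cartilage of day 7 it went from 1984 and 686 to 1435 and 1305, and against injured cartilage of day 1 from 1910 and 1347 to 793 and 6042.

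**Figure D2:**
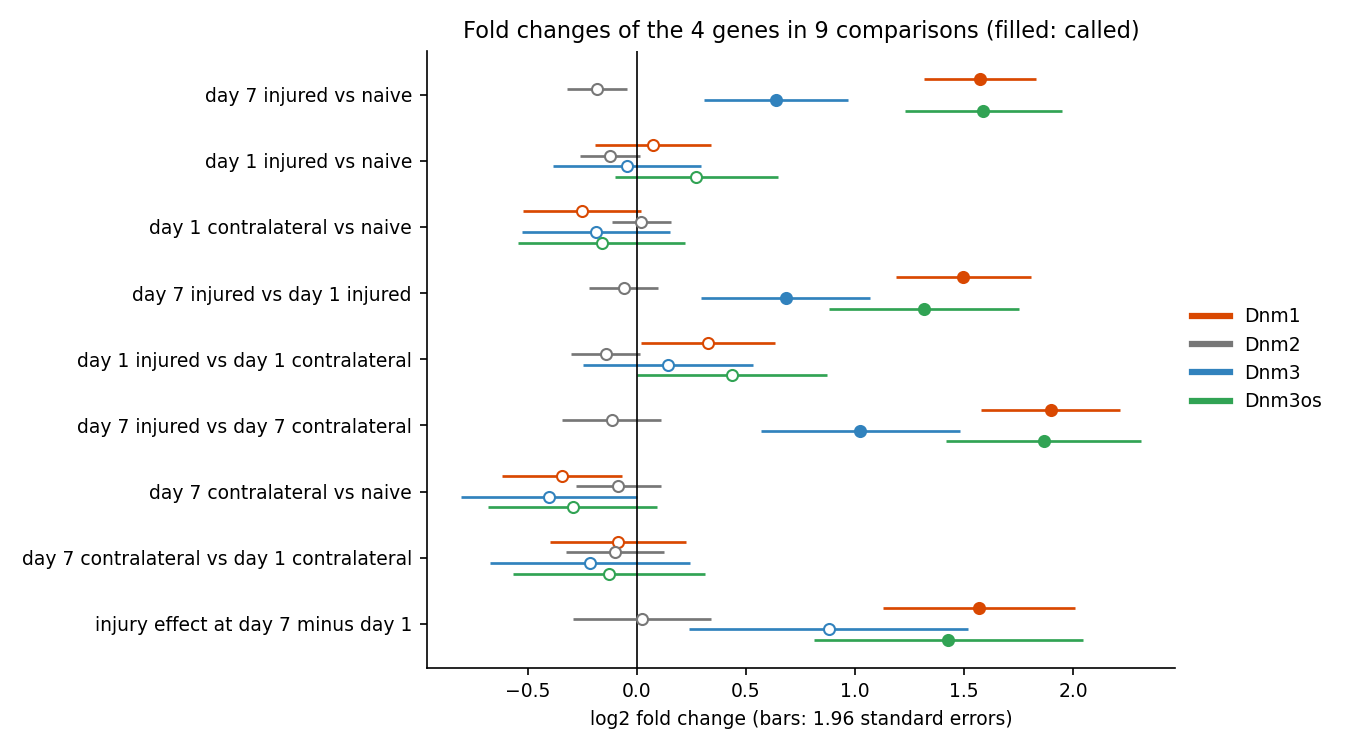
Log2 fold change of each member (x axis) in each of 9 comparisons (rows), from the edgeR fits, with bars for the 95% interval from the standard error; filled points were called (FDR of at most 0.05 and at least 1.5-fold). Dnm1, Dnm3os and Dnm3 were called in injured cartilage of day 7 against each of its 3 comparison groups, Dnm1 and Dnm3os also in the difference between the days, and no member was called in the other 5 comparisons.

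At day 1 no member was called, and neither was any other gene. In injured against contralateral cartilage of day 1, Dnm1 differed by 0.33 on the log2 scale (SE 0.16, FDR 0.755), Dnm3os by 0.44 (SE 0.22, FDR 0.764), Dnm3 by 0.14 (SE 0.20, FDR 0.912) and Dnm2 by -0.14 (SE 0.08, FDR 0.773). The share of genes called was 0% with edgeR in this comparison and in both comparisons of day 1 cartilage with naïve cartilage, with 1383, 959 (injured) and 554 (contralateral) genes at an unadjusted p under 0.05; DESeq2 called 0, 15 and 2 genes and limma-voom 0 in each. Comparisons of day 1 with naïve cartilage, which is labelled as day 7, also differ in day. Against naïve cartilage, the injured libraries of day 1 differed by 0.08 for Dnm1, 0.27 for Dnm3os, -0.05 for Dnm3 and -0.12 for Dnm2, all with FDR above 0.98. The range of the 3 libraries overlapped the naïve range for each gene. For Dnm3, however, none of them lay inside it: they stood at 2.96, 3.04 and 4.93 CPM, against 3.28 to 4.15 CPM in naïve cartilage. In contralateral cartilage of day 7 against day 1, 0.0188% of genes were called (4 of 21262), no member among them. No member was called in contralateral cartilage of day 7 against naïve cartilage either (Dnm1 -0.34, Dnm3os -0.29, Dnm3 -0.40 and Dnm2 -0.09, lowest FDR 0.279; -0.27, -0.19, -0.20 and 0.06 without library 13, lowest FDR 0.911), in a comparison where edgeR called 0% of genes with 3220 at an unadjusted p under 0.05, DESeq2 called 8 and limma-voom 0.

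Whether the injury effect differed between the days was tested directly, as the difference between injured and contralateral cartilage at day 7 minus that at day 1. It was 1.57 for Dnm1 (SE 0.22, FDR 0.000523) and 1.43 for Dnm3os (SE 0.31, FDR 0.0141), both called, in a test that called 3.77% of 21262 genes (750 higher and 52 lower, or 252 and 94 with library totals). For Dnm3 it was 0.88 (SE 0.33, FDR 0.164; 0.70 without library 13, FDR 0.200) and for Dnm2 0.02 (SE 0.16, FDR 0.964; -0.10 without library 13, FDR 0.701), neither of which was called. The call of Dnm3os was at the limit: with library totals in place of TMM it was lost (1.20, FDR 0.148), without injured library 18 its FDR was 0.0611, and without injured library 2 of day 1 it was 0.0501.

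The mix of dynamins differed in the same libraries. Dnm1 made up 12.3 ± 1.496% of the dynamin TPM (Dnm1, Dnm2 and Dnm3 together) in naïve cartilage (n = 6, 9.92% to 14.1%), and 31.8%, 32.7% and 36.1% in the 3 injured libraries of day 7. In the remaining 9 libraries the share was 9.48% to 15.02%, so that only the injured libraries of day 7 stood apart. Put as a ratio, there were 6.90 ± 1.05 Dnm2 transcripts per Dnm1 transcript in naïve cartilage and 1.86 ± 0.241 in injured cartilage of day 7. The share of Dnm3 stayed small, between 3.15% and 6.94% in every library. The summed dynamin TPM was 30.4 ± 4.49 in naïve and 26.6 ± 6.58 in injured cartilage of day 7, within the spread of each other.

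**Figure D3:**
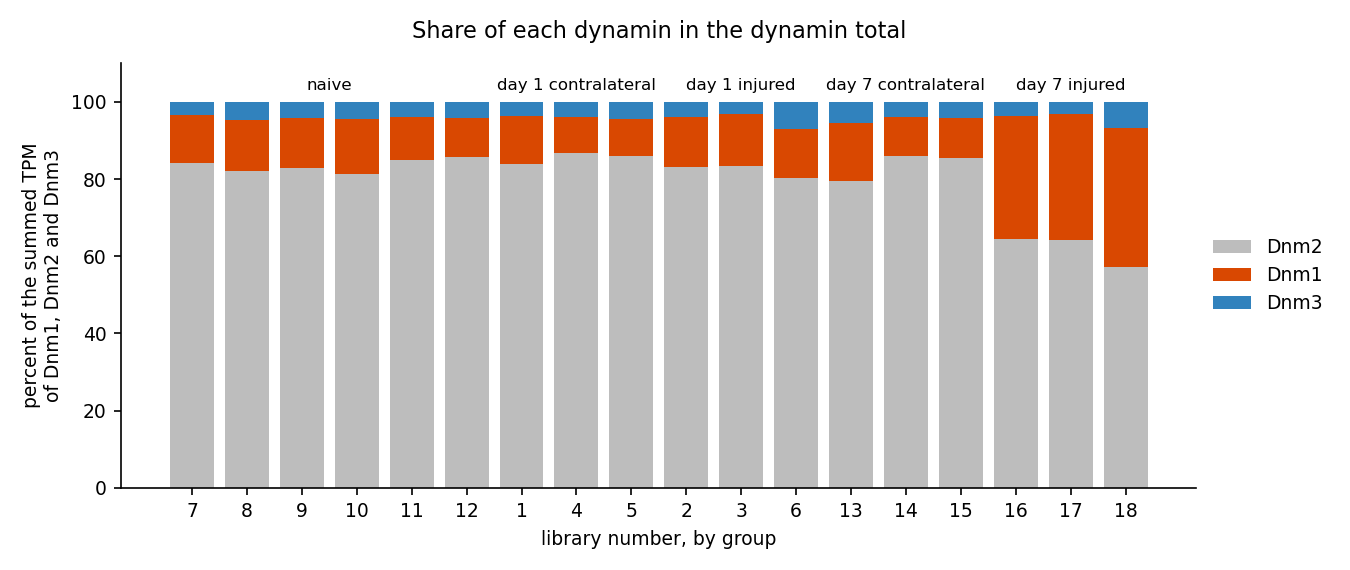
Share of Dnm1, Dnm2 and Dnm3 in the summed dynamin TPM of each library, in percent, as stacked bars from 0 to 100 with the libraries in order of group. Dnm1 takes 31.8% to 36.1% in the injured libraries of day 7 and at most 15.02% in the other libraries.

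Dnm3os and Dnm3 come from opposite strands of the same locus and did not rise by the same amount. The log2 ratio of their CPM was 2.03, 2.78 and 2.40 in the injured libraries of day 7, and 0.99 to 1.82 in naïve cartilage. At day 1 the injured libraries gave 1.73, 2.03 and 1.58, the highest of them level with the lowest injured library of day 7, and the contralateral ones 1.43, 1.43 and 1.55. The contralateral libraries of day 7 gave 1.91, 1.37 and 1.53. All injured libraries of day 7 lay above all naïve ones, the mean difference being 0.99 (2.40 ± 0.37 against 1.41 ± 0.35; two-sided exact permutation test, p = 0.0119, the smallest that the 84 splits of 9 libraries allow; 0.0238 after Benjamini-Hochberg adjustment over the comparisons made). Against contralateral cartilage of day 7 (1.60 ± 0.28) the difference was 0.80 (0.96 without library 13), with p = 0.1, the smallest that an exact test of 3 against 3 libraries allows. Dnm3os and Dnm3 share 0 exonic bases, yet unspliced Dnm3 RNA spans Dnm3os, and although the library kit was a stranded one, the sources used here do not say whether the counting used strand. If it did not, reads from the opposite strands of this intron cannot be told apart. The transcripts Dnm3-210 (chr1:161991515-161996014) and Dnm3-211 (chr1:161982458-161985729) hold intron sequence of Dnm3 outside intron 14. Dnm3-210 also covers part of the last exon of Dnm3-201 and Dnm3-202, and Dnm3-211 part of that of Dnm3-203. Neither therefore measures unspliced RNA apart. In injured against naïve cartilage of day 7, Dnm3-210 changed by 0.79 (SE 0.49, FDR 0.354) and Dnm3-211 by 0.04 (SE 0.42, FDR 0.968), neither of which was called.

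**Figure D4:**
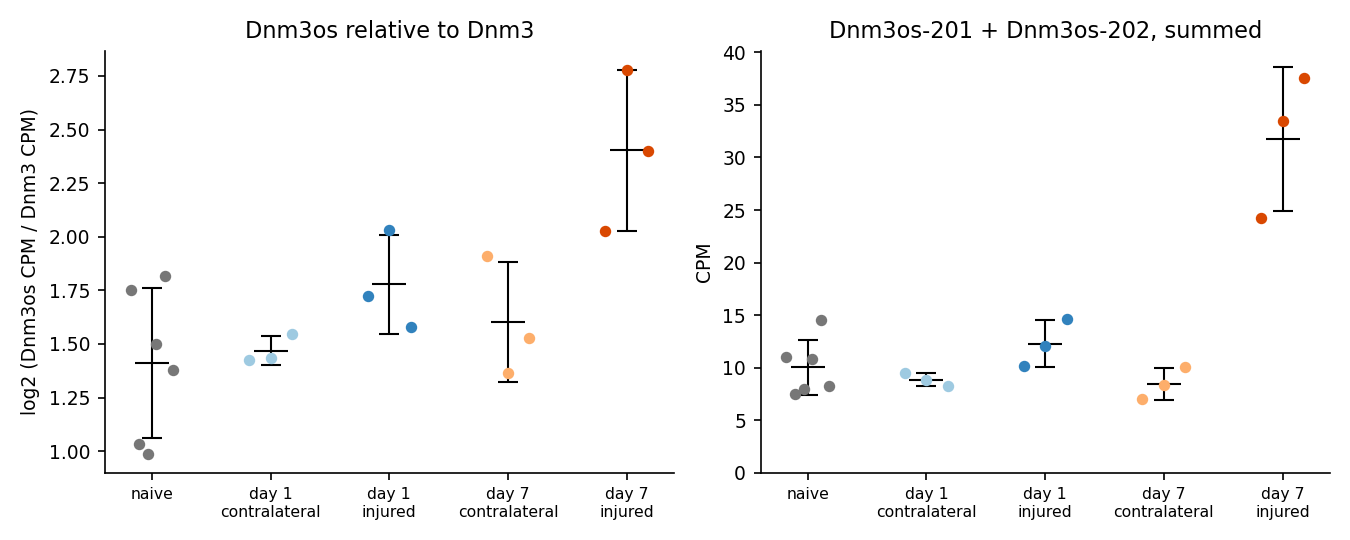
Left, log2 of the ratio of Dnm3os CPM to Dnm3 CPM; right, the summed CPM of the transcripts Dnm3os-201 and Dnm3os-202, on an axis from 0. Points are libraries, horizontal marks group means and bars 1 SD. The injured libraries of day 7 have ratios of 2.03 to 2.78, all above the naïve libraries, and summed levels of 24.2 to 37.6 CPM, above all 15 others.

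The region upstream of Dnm3os is shown because Twist1 is known to activate this RNA through E-boxes. Below are 250 bases before and 50 after its start (chr1:162217373-162217672, plus strand, GRCm38.p6, RefSeq), with capitals marking each CANNTG.
Dnm3os promoter: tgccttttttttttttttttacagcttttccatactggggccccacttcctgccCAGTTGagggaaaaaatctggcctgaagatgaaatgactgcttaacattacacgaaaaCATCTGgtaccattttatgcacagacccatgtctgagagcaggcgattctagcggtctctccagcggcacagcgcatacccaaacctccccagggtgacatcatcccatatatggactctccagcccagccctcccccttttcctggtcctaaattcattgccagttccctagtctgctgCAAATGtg

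There were 3 matches to CANNTG, which reads the same on both strands, and none overlapped another. Of 32851 mouse promoters of the same length, 72.3% held at least 1 match and 17.6% held at least 3. The promoter of Dnm3 held 2, that of Dnm2 held 1 and that of Dnm1 held 0. A CArG box, searched on both strands, occurred once upstream of Dnm3os and not in the windows of the 3 dynamins, and 1.63% of promoters held one. These are matches of letters in a window, not binding sites. Twist1 itself was measured at 16.2, 16.9 and 20.6 CPM in the injured libraries of day 7, and at 4.91 to 7.56 CPM in naïve cartilage (median 6.37, n = 6). The groups did not overlap, and the log2 fold change was 1.51 (SE 0.14, FDR 1.47e-06). Of all genes tested, 17.4% lay above every naïve library in this way, and a part of Twist1 in the Dnm3os result was not tested. Its relative Twist2 was scarce, at 0.807 ± 0.452 CPM in naïve and 1.83 ± 0.651 CPM in injured cartilage of day 7, and was also called higher (log2 1.26, SE 0.35, FDR 0.0132).

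At the level of transcripts, 28 of the 49 passed the filter on low counts in injured against naïve cartilage: 7 of 17 for Dnm1, 12 of 14 for Dnm2, 6 of 12 for Dnm3 and 3 of 6 for Dnm3os. Of these 28, 1 was called higher and 2 lower, in a test in which 7.27% of 63852 transcripts were called (4.55% higher and 2.73% lower). Kallisto divides reads between transcripts that share exons by estimation, so that these values carry more error than gene totals.

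The transcript called higher was Dnm1-202, a protein-coding transcript of 21 exons and 3764 bases and the main product of Dnm1, with 59.6% of its TPM on average over the libraries. It was measured at 44.5, 49.5 and 69.6 CPM in the injured libraries of day 7, and at 12.8 to 18.03 CPM in naïve cartilage (mean 15.5 ± 2.05, n = 6). The groups were far apart, with a log2 fold change of 1.80 (SE 0.14, FDR 4.05e-06), and 2.32 against contralateral cartilage of day 7 (SE 0.28, FDR 0.00015; 1.98 without library 13, FDR 6.81e-05), where 3.18% of transcripts were called. The next transcript of Dnm1, Dnm1-217, differed by 0.78 (SE 0.44, FDR 0.306) and was not called.

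Both transcripts called lower belong to Dnm2, and neither encodes the protein. Dnm2-205, annotated as a processed transcript, was at 3.58, 1.92 and 0.824 CPM in the injured libraries of day 7 and at 4.97 to 6.49 CPM in naïve cartilage, a log2 fold change of -1.47 (SE 0.33, FDR 0.0138). Dnm2-207, with a retained intron, was at 1.29, 2.98 and 0.969 CPM against 3.33 to 7.58 CPM, a log2 fold change of -1.52 (SE 0.34, FDR 0.0123). No injured library reached the naïve range for either of them. Neither was called against contralateral cartilage of day 7 (-1.31, FDR 0.0876, and -1.16, FDR 0.164), though without library 13 Dnm2-205 was (-1.58, FDR 0.0440; Dnm2-207 -1.46, FDR 0.0756), and each lost its call when one of the injured libraries was left out (Dnm2-205 without library 17, Dnm2-207 without library 16 or 18).

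The coding and the other transcripts of Dnm2 were then summed apart. Over coding transcripts Dnm2 stood at 102 ± 6.33 CPM in naïve and at 101 ± 7.06 CPM in injured cartilage of day 7, while its other transcripts summed to 16.4 ± 2.89 and 7.70 ± 1.65 CPM. In contralateral cartilage of day 7 the other transcripts summed to 7.60 CPM in library 13, within the injured range of 5.82 to 8.87 CPM, and to 16.03 and 15.5 CPM in libraries 14 and 15, within the naïve range. Coding transcripts held 86.2 ± 2.18% of the Dnm2 counts in naïve cartilage and 92.8 ± 1.81% in injured cartilage of day 7, with 91.2%, 87.5% and 87.5% in the contralateral libraries of that day. The main coding transcript, Dnm2-202, changed by -0.20 (SE 0.15, FDR 0.448). Intron-holding transcripts of other genes were lower in the same libraries: transcripts annotated with a retained intron took 3.21 ± 0.446% of all counts in naïve and 2.10 ± 0.0469% in injured cartilage of day 7, and of 14321 of them tested 822 were called lower and 102 higher (median log2 fold change -0.43), against 419 lower and 2614 higher of 33947 protein-coding transcripts (median 0.10). The part of this in the Dnm2 result was not tested. Tmed1, which encodes a cargo receptor of the early secretory pathway and whose end shares 207 exonic bases with the end of Dnm2 on the other strand, rose by 0.78 (SE 0.09, FDR 1.74e-05) and, not called, differed by 0.46 against contralateral cartilage of day 7 (FDR 0.0645), both opposite in sign to Dnm2. Ciz1, beside the start of Dnm1, shares 0 exonic bases with it and was not called (log2 -0.11, SE 0.09, FDR 0.355). Within Dnm3, the antisense gene 2810442N19Rik, sharing 42 exonic bases, had few reads. It had 22 counts in total over the 3 injured libraries of day 7 and 12 over the 6 naïve ones. Per library these were 6 to 8 counts (0.363 to 0.380 CPM) and 1 to 3 counts (0.0346 to 0.148 CPM). Gm38304 and Gm16101, further genes that overlap the span of Dnm3, share 0 exonic bases with it.

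**Figure D5:**
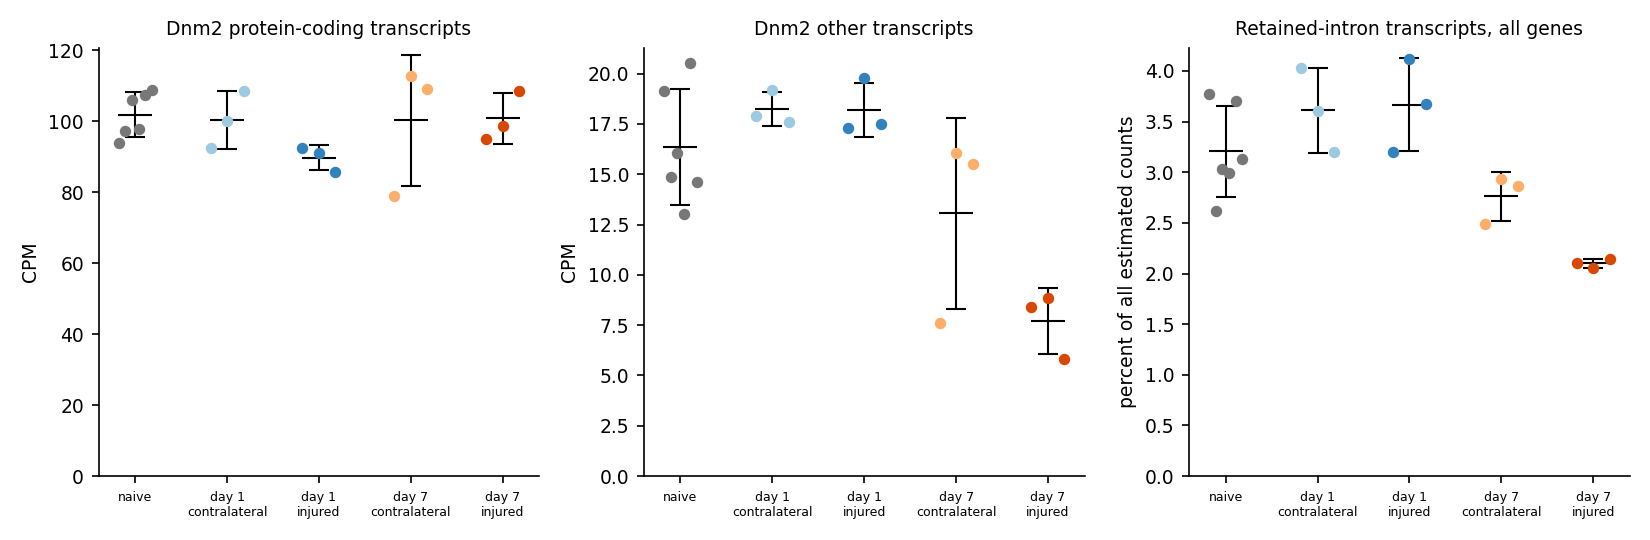
Summed CPM of the protein-coding Dnm2 transcripts (left) and of its other transcripts (middle), and the percent of all estimated counts in retained-intron transcripts of all genes (right), by group, on axes from 0; points are libraries, horizontal marks means and bars 1 SD. The other transcripts are lower in injured cartilage of day 7 (7.70 ± 1.65 CPM) than in naïve cartilage (16.4 ± 2.89 CPM), while the coding sum differs by less than its spread.

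The mix of transcripts within each gene was tested for those holding at least 10% of their gene's TPM. There were 20 exact permutation tests, of 10 transcripts in 2 comparisons. The 10 tests against contralateral cartilage of day 7 could not have passed, since 3 libraries against 3 allow no p below 0.1. The smallest p that the comparison with naïve cartilage allows, 0.0119, was reached in injured against naïve cartilage of day 7 by Dnm2-211 (19.6 ± 1.71% of Dnm2 against 13.3 ± 2.56%), Dnm3-205 (28.7 ± 10.9% of Dnm3 against 6.64 ± 4.83%) and Dnm3-208 (20.9 ± 12.0% against 55.9 ± 7.97%), each two-sided, with an adjusted p of 0.0794 over all 20 tests and, in an adjustment added after the values were seen, of 0.0397 over the 10 that could pass, so that the call depends on whether the other 10 are counted. The Dnm3 shares rest on few reads: Dnm3-205 had 0 to 10.6 estimated counts in naïve libraries and 12.2 to 21.7 in injured libraries of day 7, and its fitted level differed by 2.19 on the log2 scale (SE 0.69, FDR 0.0659). Dnm3os-201 and Dnm3os-202 differ by 2 bases at their ends, and the reads were divided between them unevenly from library to library, with Dnm3os-201 taking between 28.2% and 97.2% of Dnm3os in naïve cartilage. Taken apart, neither was called (1.37, FDR 0.0721, and 2.23, FDR 0.237). Summed, which was decided after seeing these values, they stood at 24.2, 33.4 and 37.6 CPM in injured and at 7.53 to 14.5 CPM in naïve cartilage, a log2 fold change of 1.65 (SE 0.20, FDR 0.00015).

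Dnm1 and Dnm2 each have a pair of alternative exons of 139 bases, of which a transcript uses one or the other, and this pair was also looked at after the values were seen. In Dnm1 the exon at chr2:32334682-32334820, used by Dnm1-202, took 86.5 ± 5.22% of the assignable counts in naïve and 91.8 ± 2.20% in injured cartilage of day 7, the remainder going to the exon at chr2:32333066-32333204. In Dnm2 the exon at chr9:21478899-21479037, used by Dnm2-202, took 66.0 ± 2.42% and 64.2 ± 4.04%, against that at chr9:21480407-21480545. In both genes the groups overlapped.

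Across the 18 libraries Dnm1, Dnm3 and Dnm3os varied together, which is given as a description, since libraries of one group share their condition. Pearson's r of the log2 CPM was 0.95 for Dnm1 with Dnm3os, 0.81 for Dnm1 with Dnm3 and 0.80 for Dnm3 with Dnm3os, and -0.31 for Dnm1 with Dnm2. After group means were taken off, the values were 0.60, 0.52, 0.46 and 0.36, and over the 15 libraries other than injured cartilage of day 7 they were 0.70, 0.66, 0.59 and 0.18. Dnm2 with Dnm3 gave 0.01 over all libraries but 0.47 after group means were taken off, and Dnm2 with Dnm3os -0.28 and 0.37. Among 21245 genes, those most like Dnm1 over the 18 libraries were Pcdhb17 (r = 0.99), a protocadherin, Zfp521, Sdk1, Gm2115 and Plagl1 (0.98 each). Those most like Dnm3os were Tulp3 and Nisch (0.97 each), Sec16b, Mapkbp1 (0.96 each) and Nectin3 (0.95). For Dnm3 they were Tbx15 (0.93), a transcription factor of the developing skeleton, Rabgap1 (0.92), Shroom4, Sncaip and Sgcb (0.91 each), and for Dnm2 they were Hcfc1 (0.96), Taok3 (0.94), Dock10, Rbm10 (0.93 each) and Hist1h2bf (0.91). After group means were taken off, r was lower for the genes most like Dnm1 (0.77 to 0.90), Dnm3os (0.62 to 0.80) and Dnm3 (0.73 to 0.81), and 0.90 to 0.95 for those most like Dnm2.

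The other genes of the machinery in which dynamins work are given by list, beside the 10.4% of all genes tested that were called higher and the 6.11% called lower in this comparison. Of 9 further members of the dynamin superfamily, which remodel mitochondria, the endoplasmic reticulum or act against viruses, 0 were called at day 7 against naïve cartilage, with a median log2 fold change of -0.09 beside -0.04 for all genes tested. Atl3 (atlastin 3, which fuses endoplasmic reticulum tubules), the most abundant, differed by 0.43 (SE 0.08, FDR 0.000879), short of 1.5-fold; Mfn2 (mitofusin 2) differed by -0.14 (FDR 0.507) and Dnm1l, which divides mitochondria, by 0.22 (FDR 0.0203).

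Of 21 tested genes of the clathrin coat and its adaptors, 2 rose and 0 fell (median 0.15), a share near that of all genes called higher: Cltb, a clathrin light chain, by 0.69 (SE 0.12, FDR 0.00037), and Dab2, a cargo adaptor, by 1.66 (SE 0.26, FDR 0.000189). The most abundant, the clathrin heavy chain Cltc, at 689 ± 38.6 CPM in naïve cartilage, differed by 0.22 (FDR 0.0909), and the adaptor Picalm by -0.01 (FDR 0.918). With library totals in place of TMM, 1 gene of this list was called higher and 2 lower, and the median was -0.17, so that no direction can be given for the list.

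Of 16 tested partners of dynamin with BAR or SH3 domains, which bend the membrane or link it to actin, 5 rose and 0 fell (median 0.32): Cttn (cortactin) by 1.21 (SE 0.13, FDR 5.38e-06), Snx33 by 1.04 (SE 0.12, FDR 1.25e-05), Snx9 by 0.82 (SE 0.09, FDR 7.21e-06), Sh3gl1 (endophilin A2) by 0.67 (SE 0.10, FDR 0.000135) and Wasl (N-WASP) by 0.64 (SE 0.09, FDR 5.72e-05). Against contralateral cartilage of day 7, 5 were called higher and 0 lower, or 5 higher and 1 lower without library 13. Pacsin2 (log2 0.00) and Snx18 (0.51, FDR 0.000688) were the most abundant and were not called. With library totals 2 were called higher and 1 lower, and the median was 0.00.

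Of 6 genes for uncoating and phosphoinositide phosphatases 1 rose, Synj2 (synaptojanin 2) by 0.84 (SE 0.13, FDR 0.000255), while the chaperone Hspa8 (0.23) and Gak (0.05) were not called; with library totals 0 were called higher and 1 lower. Of 11 genes of caveolae, 4 rose and 0 fell: Cav1 by 0.94 (SE 0.14, FDR 0.000167), Cavin1 by 0.85 (SE 0.16, FDR 0.0011), Cavin3 by 1.45 (SE 0.18, FDR 1.77e-05) and Ehd2 by 1.06 (SE 0.14, FDR 5.28e-05), the median of the list being 0.33. With library totals 3 of them were called higher and the median was 0.01.

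The study names 6 genes as targets of miR-199a-5p from work in human chondrocytes that it read beside these libraries, so that their directions here are not independent evidence. Of these, 2 rose at day 7 against naïve cartilage: Fzd6, a Wnt receptor, by 2.01 (SE 0.12, FDR 1.69e-08; 6.53 ± 0.642 to 26.0 ± 3.92 CPM), and Ece1, which activates endothelins, by 0.68 (SE 0.14, FDR 0.0022). Sos2 differed by -0.22 (FDR 0.0397), Slc9a8 by -0.34 (FDR 0.0284), Git1 by 0.57 (FDR 0.000265) and Celsr1 by 0.00 (FDR 0.984), none of them past 1.5-fold. The study's support differs between the 6 genes. Its reporter assays, in a chondrosarcoma cell line, found CELSR1, GIT1, ECE1 and SOS2 repressed. For FZD6 it cites earlier work, and SLC9A8 is not among the genes it lists as repressed. With library totals 1 of the 6 was called higher and 1 lower, and the median went from 0.29 to -0.03.

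Marker genes of other cell types moved in the same libraries. Of 12 markers of fibroblasts and perichondrium 11 were called higher in injured against naïve cartilage of day 7, with a median log2 fold change of 1.78; Pi16 (0.11) was not. Summed, they rose from 15520 ± 3369 CPM to 79855 ± 5896 CPM, Col1a1 being the most abundant, and in contralateral cartilage of day 7 they stood at 33032 ± 21124 CPM. Prrx1 rose by 1.64 and Thy1 by 1.91. These markers were highest in the same 3 libraries in which Dnm1 and Dnm3os were highest, and their part in the result was not tested. In library 13 these markers summed to 57137 CPM, and Dnm1 (15.7 CPM) and Dnm3os (7.01 CPM) were lowest of all 18 libraries. Dnm2 (87.0 CPM), Dnm3 (1.79 CPM) and the TMM factor (0.696) were lowest there as well. The low levels were therefore not particular to Dnm1 and Dnm3os, and that library does not test the part of the fibroblast markers. It was also the highest in the summed chondrocyte (15531 CPM) and erythroid (62806 CPM) markers. In bulk samples of this kind, fewer cells of a type and less RNA per cell cannot be told apart.

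Of 15 chondrocyte markers 4 rose, Acan, Col11a1, Comp and Sox9, and Chad fell, with a median of 0.30; the list summed to 6762 ± 1428 CPM in naïve and 9936 ± 995 CPM in injured cartilage of day 7. Since Dnm1 is best known from neurons, neuronal markers were also counted: 0 of 4 tested were called (median 0.56), and their 6 genes summed to 6.96 ± 0.979 CPM in naïve and 9.99 ± 1.41 CPM in injured cartilage of day 7. The most abundant, Map2, stood at 3.65 CPM in naïve cartilage, and it was called higher against contralateral cartilage of day 7 (1.17, FDR 0.0225; 0.86 without library 13, FDR 0.0493), 1 of 4 in that comparison, though with library totals 0 were called. The synaptic genes Snap25 and Syt1 had at most 4 and 5 counts in any library and were not tested.

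Among the remaining lists, 3 of 5 pericyte and smooth muscle markers rose (median 0.87; 396 ± 55.1 to 734 ± 90.1 CPM) and 3 of 6 endothelial markers rose (median 0.62), and their part in the result was not tested. Macrophage markers had 0 of 6 called, osteoclast markers 1 of 6 higher, and osteoblast and osteocyte markers 1 higher and 2 lower of 9. Neutrophil markers had 2 of 6 lower, erythroid markers 3 of 6 lower, skeletal muscle markers 1 of 7 lower and adipocyte markers 2 of 5 lower. All these counts are from injured against naïve cartilage of day 7, where 16.6% of genes were called. They moved with the scaling: with library totals 5 of 6 neutrophil, 6 of 6 erythroid, 5 of 7 skeletal muscle and 5 of 5 adipocyte markers were called lower, the osteoblast and osteocyte markers had 0 higher and 4 lower, the endothelial ones 1 higher and 1 lower, and the pericyte and smooth muscle ones 2 higher, while 11 of 12 fibroblast and perichondrium markers and 4 of 15 chondrocyte markers were called higher as before.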

How the data were processed

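The authors deposited, for each of the 18 libraries, Kallisto estimates per transcript; per the study's methods, reads were trimmed with Trimmomatic and pseudo-aligned to mouse transcripts of GRCm38, whereas the submitters' processing notes list the build GRCh38, Kallisto and DESeq2. The deposited estimated counts (est_counts) are not normalized and the deposited TPM values are normalized by the authors for transcript length and library size. The libraries were made with a stranded total RNA kit; whether Kallisto was run with a strand setting is not given in the sources used here. The study mentions the removal of a library without naming it, and all libraries held here were kept. Here, 135107 of 137436 transcript identifiers (98.3%) matched GENCODE M21 and were summed to 49184 genes; the 2329 unmatched took 0.667% to 3.90% of counts and were left out. Sums were rounded to whole counts.

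edgeR 4.0.16 (R 4.3.3) was used with TMM scaling, its default filter on low counts, the quasi-likelihood test and Benjamini-Hochberg adjustment over all genes (21129) or transcripts (63852). Comparisons that did not involve contralateral cartilage of day 7 were fitted on the 15 other libraries, as library 13 stood apart; the rest were fitted on all 18 (21262 genes, 65188 transcripts). Shares and ratios (with a pseudocount of 0.1 CPM) were tested by exact permutation. Transcripts whose values are given were among those that passed the filter or held at least 10% of their gene. Not all of these transcripts were named, nor were all genes overlapping a member. The 5 genes most correlated with each member (log2 of CPM + 0.5) were named. In the lists of the endocytic machinery, Twist regulators and miR-199 targets the 2 most abundant genes and those called were named. Other list genes were named after their values were seen. Marker lists covered chondrocytes and 12 other cell types. The result of 1 marker list is not reported here. The members and lists were chosen with earlier results of these data known. On simulated counts with 200 genes changed 3-fold, the gene fit of injured against naïve cartilage of day 7 called 169 of them and 7 unchanged genes of 21129, and the transcript fit 53 of 200 and 3 unchanged of 63852. The simulated libraries were independent draws around 1 common profile, with a spread that followed the average trend. Naïve libraries from the same mice, broad shifts in composition and gene-specific spread were not simulated. These rates may therefore not hold for the real libraries. Replicates were compared pairwise, and none agreed within sampling noise (chi-square per degree of freedom of at least 18.4). DESeq2 1.42.0, limma-voom (limma 3.58.1), other scalings, filters and limits, a transcript length offset and leaving out each library were tried as alternatives. No column with authors' comparisons was used.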

Additional observations from a re-analysis of the deposited data

Results flagged for a closer look

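The effect of injury differed between the days for Dnm1 and Dnm3os, by a test of the difference itself. For Dnm1 the log2 difference between injured and contralateral cartilage was greater at day 7 than at day 1 by 1.57 (SE 0.22, edgeR FDR 0.000523), and each of the 3 injured libraries of day 7 lay above each contralateral one. For Dnm3os it was greater by 1.43 (SE 0.31, edgeR FDR 0.0141), with the same separation of the libraries at day 7, and this call was lost with library totals in place of TMM (1.20, FDR 0.148) and without library 18 (FDR 0.0611) or library 2 (FDR 0.0501). Library 13, among the contralateral libraries of day 7, had the lowest Dnm1, Dnm3os and Dnm3 of all libraries; without it the values were 1.52 for Dnm1 (FDR 0.00121) and 1.35 for Dnm3os (FDR 0.0264).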

How the results depend on the processing

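The calls of Dnm1 and Dnm3os in injured cartilage of day 7 against naïve cartilage, contralateral cartilage of day 7 and injured cartilage of day 1 were kept under every alternative run. Against naïve cartilage, leaving out 1 library gave 1.36 to 1.70 for Dnm1 and 1.47 to 1.74 for Dnm3os. With library totals the difference of Dnm3os from injured cartilage of day 1 was 0.86 (FDR 0.0119) in place of 1.32. The causes of the changes below were not tested. Dnm3 lost its call against naïve cartilage at an FDR limit of 0.01 (0.64), with library totals (0.32), with the length offset (0.31) and without library 18 (range over left-out libraries 0.51 to 0.77). It lost its call against injured cartilage of day 1 at an FDR of 0.01 (0.68), with library totals (0.23) and with the length offset (0.26), with a range of 0.54 to 0.95 over left-out libraries, and against contralateral cartilage of day 7 with library totals (0.84) and the length offset (0.31). The day 7 minus day 1 effect of Dnm3os was lost at an FDR of 0.01 (1.43) and with library totals (1.20), and ranged from 1.297 to 1.58 over left-out libraries. Differences near 0 that were called nowhere turned sign. With library totals these were Dnm2 (0.0073) and Dnm3 (0.0936) in injured cartilage of day 1 against naïve cartilage and the day 7 minus day 1 effect of Dnm2 (-0.22). With the length offset they were Dnm3 in injured cartilage of day 1 against naïve cartilage (0.0495), Dnm1 (0.0297) and Dnm3 (0.0544) in contralateral cartilage of day 7 against day 1, and the day 7 minus day 1 effect of Dnm2 (-0.0737). Over left-out libraries the ranges were -0.31 to 0.0938 for Dnm3 in injured cartilage of day 1 against naïve, -0.13 to 0.28 for Dnm3 in injured against contralateral cartilage of day 1, -0.0156 to 0.0631 for Dnm2 in contralateral cartilage of day 1 against naïve, -0.17 to 0.0632 for Dnm2 in contralateral cartilage of day 7 against naïve, -0.19 to 0.0439 for Dnm2 in contralateral cartilage of day 7 against day 1, and -0.10 to 0.11 for the day 7 minus day 1 effect of Dnm2; the highest 2 values of contralateral cartilage of day 7, 0.0632 and 0.0439, were those without library 13.

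Counts of called genes moved by over 1.5 times in these settings. For injured against naïve cartilage of day 7 (3498) they were 6291 without a fold limit and 5824 with library totals. For injured cartilage of day 7 against day 1 (3257) they were 5160 without a fold limit, 1895 at an FDR of 0.01 and 6835 with library totals. For the day 7 minus day 1 effect (802) they were 344 at an FDR of 0.01, 346 with library totals and 402 to 962 over left-out libraries, being lowest without library 18 (402), 5 (465) and 2 (496). DESeq2 called 15 genes in injured and 2 in contralateral cartilage of day 1 against naïve, where edgeR called 0, and 8 in contralateral cartilage of day 7 against naïve. For contralateral cartilage of day 7 against day 1 (4 genes) DESeq2 called 81, the fit with no filter on low counts called 1, and an FDR of 0.01, library totals, limma-voom, the length offset and each left-out library gave 0. The number of member transcripts called (3) was 2 to 5 over left-out libraries, 5 without library 11, when Dnm3-205 (FDR 0.0367) and Dnm3os-201 (FDR 0.0271) were added, and against contralateral cartilage of day 7 it was 1, or 2 without library 13, when Dnm2-205 was added; leaving out library 13 for transcripts and lists was chosen after seeing the data. Against naïve cartilage limma-voom added Dnm3-205 (FDR 0.0132). No paired analysis was possible because the labels number the libraries consecutively over all groups and do not tie left and right knees to the same mice. Dnm3 had the fewest counts, 23 to 145 per library.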
